A study of Homo sapiens with 6 samples.

Results

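The 52 genes described here encode integrin subunits, matrix proteins (collagens, laminins, fibrillins, a fibulin and a thrombospondin), lysyl oxidase-like enzymes, metalloproteases of the MMP, ADAM and ADAMTS families and the tissue inhibitors of metalloproteases (TIMP). They are the genes of the deposited table whose symbol begins with the letters of these families, 52 of 8529 genes. By symbol they comprised 11 integrin subunits, 16 structural matrix genes, 3 cross-linking enzymes, 15 metalloproteases, 4 inhibitors and 3 genes that shared only the letters. Those 3 were ITGB1BP1, an adaptor that binds an integrin tail, ITGB3BP, a centromere protein, and COL4A2-AS2, an RNA antisense to a collagen gene. The cells were SW480, an established line from a human colorectal adenocarcinoma, and all of them carried the label WT. Culture on a hydrogel of 2 kPa (soft) or 25 kPa (stiff) lasted 72 h, and 3 libraries were sequenced at each stiffness to ask how matrix stiffness affects expression in colorectal cancer cells. No other agent separated the groups, and only 1 line was used. The labels call the wells a triplicate without naming separate passages, so the p-values measure the spread between these libraries, which may be technical.

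Integrins are receptors made of an alpha and a beta subunit that bind matrix proteins outside the cell and, through talin and vinculin, the actin cytoskeleton inside it. Collagens and laminins are trimeric matrix proteins, with laminins and some collagens forming the basement membrane under an epithelium, and lysyl oxidase-like enzymes cross-link collagen fibres. Metalloproteases cut matrix and cell surface proteins, and TIMPs block them.

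Expression was given as FPKM, fragments counted on a gene relative to its exon length in kilobases and to the reads mapped in the library, so that levels could be compared between genes per length. The study's methods describe a purification of small RNA, whereas the table holds genes of mRNA, so the RNA fraction behind the values is not settled. The number of reads behind a value is unknown, and the errors given are the spread between libraries. The FPKM of a library summed to between 201030 and 263028. GAPDH, an abundant housekeeping gene in most cells, was listed at only 0.32 to 3.35 FPKM, so a low FPKM in this table need not mean that a gene was little expressed. Of the marker genes checked, 10 of 12 for colorectal epithelium were in the table, with KRT18 at 2611 to 3358 FPKM and EPCAM at 64.7 to 101 FPKM. Their summed FPKM, most of it KRT18 and KRT19, overlapped between 2 kPa (4692 to 4977) and 25 kPa (3821 to 5023). Of these 10 markers, 8 had a log2 fold change below 0 at 25 kPa, with a median of −0.10 against 0.05 over all genes. EPCAM and CDH1 lay above 0, at 0.19 and 0.04. CDX2, CLDN4 and KRT19 were lower at 25 kPa without overlap between groups (30% of the 10, against 4.78% of all genes). Their log2 fold changes were −0.47, −0.50 and −0.49, the first 2 with an unadjusted p under 0.05 (limma). CDX2 was at a low level, 0.07 to 0.79 FPKM. For fibroblasts 6 of 12 markers were in the table. Their summed level was 3.98 to 8.37 FPKM at 2 kPa and 6.06 to 7.86 FPKM at 25 kPa. TAGLN was the highest of the 6, at 2.29 to 5.78 FPKM, with a log2 fold change of 0.02. VIM, LUM, PDGFRB and THY1 were at no more than 1.01, 0.55, 0.5 and 0.08 FPKM. All 6 had a log2 fold change above 0, with a median of 0.16 against 0.05 over all genes. Of the 6, ACTA2, smooth muscle actin, alone was higher at 25 kPa without overlap (16.7%, against 11.2% of all genes). It was at 0.53, 1.66 and 1.33 FPKM at 2 kPa and 2.51, 2.09 and 2.44 FPKM at 25 kPa. Its log2 fold change was 0.66, with an unadjusted p under 0.05 (limma). The part of either marker list in the differences of the 52 genes was not tested. The table held 1 of 7 leukocyte markers, CD14 at 0.17 to 1.83 FPKM, and 0 of 5 endothelial markers. In such bulk libraries, fewer cells of a type and less RNA per cell cannot be told apart. Among the 2 kPa libraries, replicate 2 held the highest value for 36 of the 52 genes (69.2%), against 49.2% of all genes. Its values also rose with transcript length relative to the other libraries of its group (Spearman rho 0.277 across genes), and the 52 genes had a median length of 3329 nt against 1756 nt over all genes. Trends of the opposite sign were found in 2 kPa replicate 3 (rho −0.2505) and 25 kPa replicate 2 (rho −0.2265). With a length correction of every library, 5 of the 52 genes were higher and 7 lower at an unadjusted p under 0.05 (against 7.89% and 3.52% of all genes), and the log2 fold changes of COL6A1, LOXL2, ITGA5 and THBS1 were −1.44, −1.01, −0.61 and 1.00. Values without 2 kPa replicate 2 are given below. GC content showed such trends at 25 kPa, with a rho of 0.349 in replicate 2 and −0.288 in replicate 3. The 52 genes had a median GC content of 56.9%, against 51.05% over all genes. With the GC correction, COL6A1, LOXL2, ITGA5, COL6A2 and MMP14 had log2 fold changes of −1.3, −0.88, −0.53, −0.33 and −0.30. These lay nearer 0 than without it, while ITGA6 and COL4A2-AS2 moved away from 0, to −0.74 and 0.78.

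The most marked differences were a lower level of the type VI collagen gene COL6A1 and of the cross-linking enzyme LOXL2 on the stiff gel, and a higher level of thrombospondin THBS1. COL6A2, of the same collagen, was also lower, at a low level of 0.05 to 0.67 FPKM. The receptor genes ITGA5 and ITGA6 and the proteases MMP14 and MMP11 were lower on the stiff gel, while ITGB8 was higher. None of the 52 genes had an adjusted p under 0.05 (limma, Benjamini-Hochberg over all genes), where 0.117% of all 8529 genes had one, so each of these differences is given with its values and not as a call. At an unadjusted p under 0.05 by limma, 11 of the 52 genes (21.2%) differed, against 10.2% of all genes. Of these, 7 were lower at 25 kPa (13.5% of the 52, against 3.19% of all genes) and 4 were higher (7.69%, against 6.96%). Under equal library sums the same counts were 7 lower and 4 higher, while the shares of all genes were 4.67% lower and 3.48% higher. The shares of all genes after median centring were 4.58% lower and 4.57% higher, with 8 and 4 of the 52 genes. Soft and stiff libraries lay apart, without overlap, for 11 of the 52 genes (21.2%, against 16% of all genes), 7 of them lower (13.5%, against 4.78%) and 4 higher (7.69%, against 11.2%). The median log2 fold change of the 52 genes was −0.01, against 0.05 over all genes, and 25 genes lay above 0 and 27 below. Of the 32 genes with a mean of at least 1 FPKM, 6 were lower (18.8%, against 3.6% of all genes of that level) and 3 higher (9.38%, against 8.44%), and the groups lay apart for the same numbers of genes (against 5.22% lower and 13.3% higher). Without 2 kPa replicate 2, the genes with an unadjusted p under 0.05 were 8 higher and 5 lower at 25 kPa (against 8.5% and 2.77% of all genes), and without 25 kPa replicate 1 they were 4 higher and 3 lower (against 5.02% and 2.27%). Here and below, log2 differences are 25 kPa minus 2 kPa after adding 1 to each FPKM, which shrinks the differences of low genes, SE is the standard error of limma, and intervals are 95% confidence intervals.

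**Figure D1:**
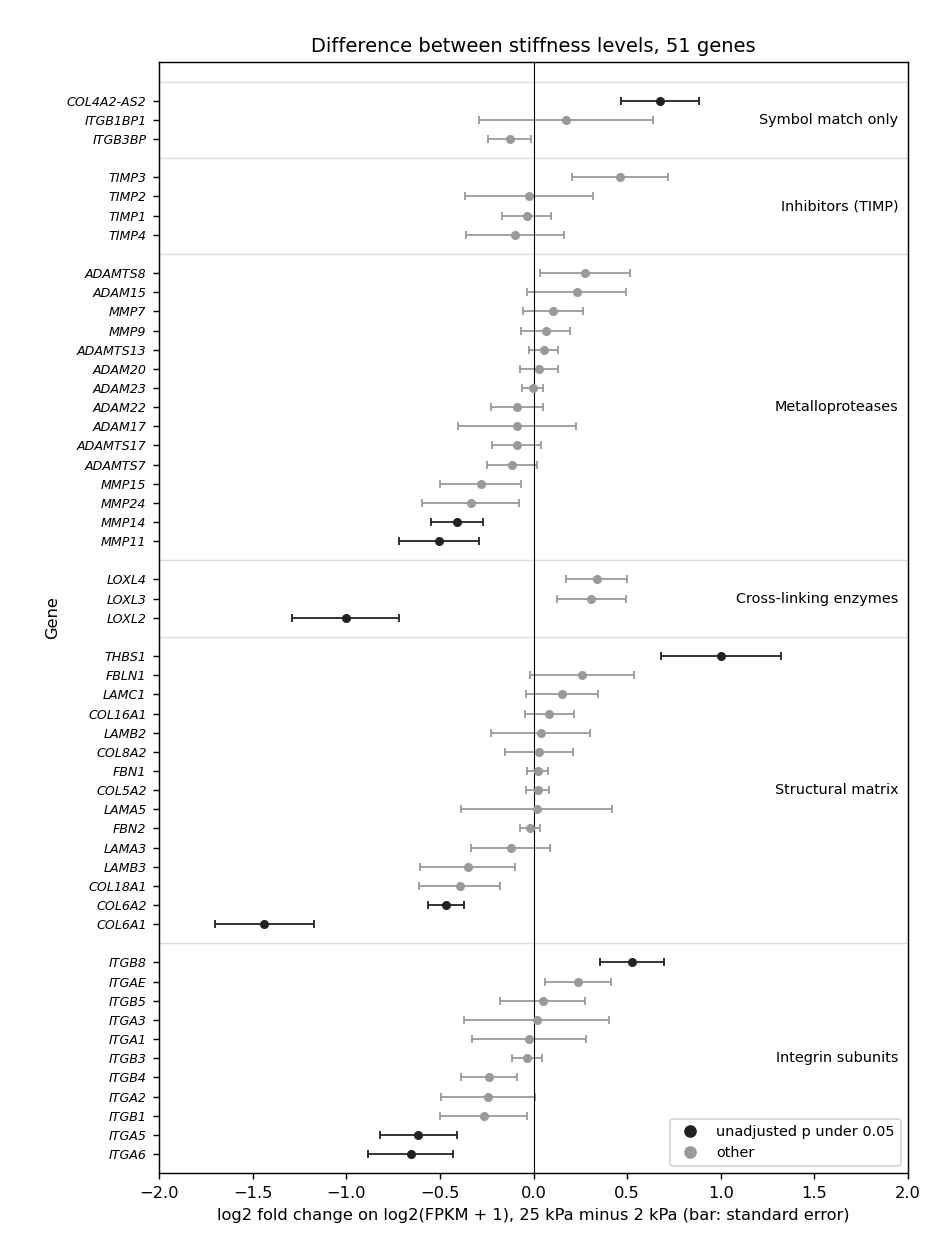
Log2 fold change (25 kPa minus 2 kPa, on log2(FPKM + 1), horizontal axis) of 51 of the 52 genes, ordered within the classes, with bars of 1 standard error from limma; dark points had an unadjusted p under 0.05. COL6A1 and LOXL2 lie farthest to the left, at −1.44 and −1.0, and THBS1 farthest to the right, at 1.00.

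Of the 11 integrin subunits, 4 had a log2 fold change above 0 and 7 below, with a median of −0.04 against 0.05 over all genes. That median was −0.31 with a pseudocount of 0.01 in place of 1 and −0.24 among genes with a mean of at least 1 FPKM, and it stayed below 0 in each of the 16 alternatives. At an unadjusted p under 0.05, ITGA5 and ITGA6 were lower and ITGB8 was higher at 25 kPa. The summed level of the 11 genes was 86.3, 87.5 and 59.4 FPKM at 2 kPa and 61.4, 57.1 and 66.8 FPKM at 25 kPa. The sums overlapped because 2 kPa replicate 3 was as low as the stiff libraries.

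ITGA5, the alpha subunit of the main fibronectin receptor, was measured at 16.2, 25.3 and 15.0 FPKM at 2 kPa and at 9.88, 12.3 and 12.8 FPKM at 25 kPa. All 3 soft libraries lay above all 3 stiff ones, with 2 kPa replicate 2 the highest. The means were 18.8 ± 5.65 and 11.7 ± 1.58 FPKM (SD, n = 3), which gave a log2 difference of −0.61 (SE 0.20, limma adjusted p = 0.349). The exact permutation test gave p = 0.1 (two-sided), and 3 libraries against 3 can give none smaller. Without 2 kPa replicate 2 the log2 fold change was −0.39, and without 25 kPa replicate 1 it was −0.51 and no longer had an unadjusted p under 0.05.

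ITGA6, the alpha subunit of laminin receptors of epithelia, stood at 28.5, 22.6 and 19.4 FPKM at 2 kPa and at 12.4, 11.4 and 20.7 FPKM at 25 kPa. The groups overlapped, since 25 kPa replicate 3 lay above 2 kPa replicate 3. The log2 fold change was −0.66 (SE 0.23, limma adjusted p = 0.360; exact permutation p = 0.2). Its unadjusted p was no longer under 0.05 without 2 kPa replicate 1, without 25 kPa replicate 1 or without 25 kPa replicate 2, where the log2 difference was −0.51, −0.56 and −0.50.

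ITGB8, a beta subunit that pairs with the alpha V subunit and binds latent TGF-beta, was at a low level, with 0.15, 0.61 and 0.13 FPKM at 2 kPa and 0.80, 0.65 and 1.11 FPKM at 25 kPa. Every stiff library was above every soft one, although 2 kPa replicate 2 and 25 kPa replicate 2 were close to each other. The log2 fold change was 0.53 (SE 0.17, limma adjusted p = 0.337), and 1.81 with a pseudocount of 0.01. Without 2 kPa replicate 1 or replicate 3 it was 0.45 and 0.44, and its unadjusted p was no longer under 0.05.

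The other integrin subunits showed no difference beyond their spread. ITGB5, a beta subunit of vitronectin receptors, was the integrin with the highest mean, 21.2 ± 6.77 FPKM at 2 kPa and 21.2 ± 2.72 FPKM at 25 kPa (SD, n = 3). Its log2 fold change of 0.05 had a 95% confidence interval of −0.47 to 0.57, and its sign turned under each of the 3 scalings between libraries. ITGA1 and ITGA2, alpha subunits of collagen receptors, had log2 fold changes of −0.02 (interval −0.72 to 0.67) and −0.24 (interval −0.82 to 0.33). ITGA1 ranged from 3.78 to 5.68 FPKM at 2 kPa and from 2.62 to 6.66 FPKM at 25 kPa, and ITGA2 from 2.83 to 4.90 and from 2.36 to 3.70 FPKM. ITGB1, the beta partner of ITGA1, ITGA2 and ITGA5, was listed at 0.70, 1.72 and 1.17 FPKM at 2 kPa and at 1.24, 0.47 and 0.75 FPKM at 25 kPa, far below the level of ITGA5. As with GAPDH, such a low value need not mean that the gene was little expressed. ITGB4, a beta partner of ITGA6, was listed at 0.54, 0.89 and 0.29 FPKM at 2 kPa and at 0.21, 0.41 and 0.34 FPKM at 25 kPa. The groups overlapped for both partners, with log2 fold changes of −0.27 (SE 0.23) and −0.24 (SE 0.15). ITGA3, another alpha subunit of laminin receptors, ITGAE, which lymphocytes use to bind E-cadherin, and ITGB3 completed the class at means of 2.33, 0.947 and 0.143 FPKM over all libraries. ITGAV and the other integrin genes were not in the deposited table.

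The promoters of ITGA5 and ITGB8 are printed because these integrin genes differed in opposite directions without overlap between groups. They come from RefSeq on GRCh38.p14 and run from 250 bases before to 50 bases after the start of the gene, ITGA5 at chr12:54419217-54419516 on the reverse strand and ITGB8 at chr7:20330650-20330949 on the forward strand. Capitals mark matches on either strand to the core sequence bound by TEAD factors (GGAATG), the AP-1 site (TGANTCA), the GC box (GGGCGG) and the TATA box (TATAAA), and none of the matches shown overlaps another.
ITGA5: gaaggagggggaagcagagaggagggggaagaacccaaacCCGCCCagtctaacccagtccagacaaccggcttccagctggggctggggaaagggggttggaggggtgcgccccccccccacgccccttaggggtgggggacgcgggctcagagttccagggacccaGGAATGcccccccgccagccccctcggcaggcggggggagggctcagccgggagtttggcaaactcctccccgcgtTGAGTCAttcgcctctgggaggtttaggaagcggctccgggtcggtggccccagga
ITGB8: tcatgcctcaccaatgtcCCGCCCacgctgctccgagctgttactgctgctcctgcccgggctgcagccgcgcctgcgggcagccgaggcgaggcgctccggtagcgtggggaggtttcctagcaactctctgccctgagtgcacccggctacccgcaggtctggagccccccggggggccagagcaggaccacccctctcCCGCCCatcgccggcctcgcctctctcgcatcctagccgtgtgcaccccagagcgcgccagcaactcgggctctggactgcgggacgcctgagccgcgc
The ITGA5 promoter held a match to the TEAD core 82 bases before the start, an AP-1 match 6 bases before it and a GC box. ITGB8 held GC boxes and none of the other motifs. RefSeq promoters were matched for 41 of the 52 genes, with 50 promoters in all. The TEAD core was found in 7 of these 50 promoters (14%), against 11.3% of the 8736 promoters matched to the genes of the table and 14% of all 35116 promoters. The AP-1 site was found in 4 (8%, against 4.9% and 7.71%), the GC box in 41 (82%, against 67.9% and 45%) and the TATA box in 5 (10%, against 6.24% and 11.5%). A match is a run of letters and says nothing of whether a factor was bound.

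Of the 16 structural matrix genes, 10 had a log2 fold change above 0 and 6 below, with a median of 0.02 that turned below 0 under each of the 3 scalings between libraries. At an unadjusted p under 0.05, COL6A1 and COL6A2 were lower and THBS1 was higher at 25 kPa. The summed level of the 16 genes was 153, 189.6 and 102.4 FPKM at 2 kPa and 151.4, 120.7 and 122.8 FPKM at 25 kPa, with overlap between the groups. COL18A1 had the largest part in each of these sums.

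COL6A1, the alpha 1 chain of type VI collagen, which forms beaded filaments at the border of basement membranes, had the smallest p of the 52 genes. Its level was 31.8, 40.6 and 17.6 FPKM at 2 kPa and 8.77, 11.1 and 9.79 FPKM at 25 kPa. The soft libraries were spread widely but all lay above the stiff ones, which were close together. The means were 30.0 ± 11.6 and 9.88 ± 1.15 FPKM (SD, n = 3), 3.04-fold higher on the soft gel. The log2 fold change was −1.44 (SE 0.27, 95% confidence interval −2.04 to −0.83), and its p, the 37th smallest among all genes, did not pass the adjusted threshold (limma adjusted p = 0.108). COL6A1 kept an unadjusted p under 0.05 in 16 of 16 alternatives, with log2 fold changes from −1.77 to −1.19. Its adjusted p was under 0.05 in 2 of them, after median centring (limma adjusted p = 0.0435) and without 2 kPa replicate 3 (limma adjusted p = 0.00662), and it ranged up to 0.369.

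COL6A2, the alpha 2 chain of the same collagen, was listed at a far lower level, 0.51, 0.67 and 0.48 FPKM at 2 kPa and 0.13, 0.05 and 0.19 FPKM at 25 kPa. All soft libraries again lay above all stiff ones. The means were 0.553 ± 0.102 and 0.123 ± 0.0702 FPKM (SD, n = 3), and the log2 fold change was −0.47 (SE 0.10, limma adjusted p = 0.143). With a pseudocount of 0.01 it was −2.23, and it kept an unadjusted p under 0.05 in each of the 15 alternatives that held the gene. COL6A1 and COL6A2 lie next to each other on chromosome 21, with 0 protein-coding genes of the RefSeq table between them. The ratio of COL6A1 to COL6A2 within a library ranged from 36.6 to 62.3 at 2 kPa and from 51.5 to 221 at 25 kPa, with overlap. As for ITGB1, the low listed level of COL6A2 need not mean little expression.

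**Figure D2:**
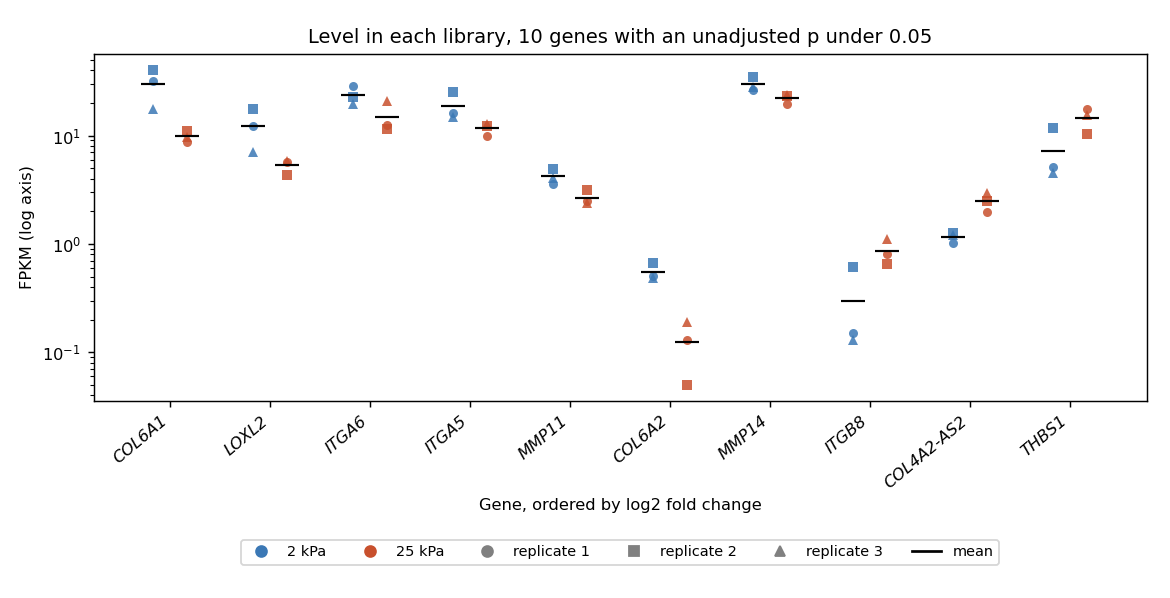
Level of 10 of the 11 genes with an unadjusted p under 0.05, in FPKM on a log axis, with a point for each library coloured by stiffness and shaped by replicate number and a bar for the mean of the 3 libraries. The groups overlap for ITGA6 and THBS1 and are apart for the other genes shown, with COL6A1 at 17.6 to 40.6 FPKM on the soft gel and at 8.77 to 11.1 FPKM on the stiff gel.

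LAMB3 and LAMA3, chains of the laminin that anchors epithelia, did not differ beyond their spread. LAMB3 was at 2.38, 2.60 and 1.54 FPKM at 2 kPa and at 0.89, 1.91 and 1.70 FPKM at 25 kPa, and LAMA3 at 1.41, 0.86 and 1.34 FPKM and at 0.73, 1.5 and 0.88 FPKM. Both overlapped between groups, with log2 fold changes of −0.35 (SE 0.25) and −0.12 (SE 0.21).

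THBS1, a secreted thrombospondin that binds matrix, integrins and latent TGF-beta, was at 5.17, 11.7 and 4.55 FPKM at 2 kPa and at 17.7, 10.3 and 15.6 FPKM at 25 kPa. The replicate 2 libraries crossed, with the soft one above the stiff one, and the other 2 stiff libraries lay well above the soft ones. The means were 7.15 ± 3.98 and 14.5 ± 3.77 FPKM (SD, n = 3), 2.03-fold higher on the stiff gel, with a log2 difference of 1.00 (SE 0.32, limma adjusted p = 0.333; exact permutation p = 0.2). It was the largest log2 fold change above 0 among the 52 genes. Its unadjusted p stayed under 0.05 in 16 of 16 alternatives. With 1 library left out the log2 fold change ranged from 0.78 to 1.38, the latter without 2 kPa replicate 2.

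The promoters of COL6A2 and THBS1 are printed as those of a collagen gene lower and a matrix gene higher on the stiff gel, in the same layout as above, COL6A2 at chr21:46097862-46098161 and THBS1 at chr15:39580829-39581128, both on the forward strand of GRCh38.p14. No promoter was matched for COL6A1.
COL6A2: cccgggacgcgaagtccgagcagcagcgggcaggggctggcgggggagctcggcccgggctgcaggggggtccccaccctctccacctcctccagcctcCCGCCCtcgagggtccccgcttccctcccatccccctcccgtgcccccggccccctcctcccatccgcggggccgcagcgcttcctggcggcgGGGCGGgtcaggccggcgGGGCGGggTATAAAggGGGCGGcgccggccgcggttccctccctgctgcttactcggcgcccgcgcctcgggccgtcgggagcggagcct
THBS1: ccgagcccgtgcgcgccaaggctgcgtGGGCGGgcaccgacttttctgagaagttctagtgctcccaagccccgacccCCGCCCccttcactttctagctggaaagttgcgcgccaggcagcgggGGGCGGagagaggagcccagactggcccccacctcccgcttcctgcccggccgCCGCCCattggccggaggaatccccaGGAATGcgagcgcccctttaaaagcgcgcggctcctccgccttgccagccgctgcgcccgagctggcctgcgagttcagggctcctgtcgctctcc
COL6A2 held 4 GC boxes and a TATA box 32 bases before the start. THBS1 held 4 GC boxes and a match to the TEAD core 46 bases before the start, the same motif that ITGA5 held.

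The other matrix genes described here had no unadjusted p under 0.05. COL18A1, a basement membrane collagen whose end fragment is endostatin, was the most abundant of the class at 64.8, 67.5 and 38.1 FPKM at 2 kPa and 48.5, 41.4 and 36.1 FPKM at 25 kPa. The groups overlapped through 2 kPa replicate 3, with a log2 fold change of −0.39 (SE 0.22), and −0.65 without that library. Without 2 kPa replicate 2 it was −0.25. LAMC1 and LAMB2, chains of the common basement membrane laminins, were at means of 20.2 and 11.1 FPKM over all libraries, with log2 fold changes of 0.15 (interval −0.29 to 0.59) and 0.04 (interval −0.57 to 0.64), the latter turning in sign under each scaling between libraries. LAMA5 was the most variable of the class, at 0.99, 2.99 and 0.09 FPKM at 2 kPa against 1.21, 0.91 and 1.12 FPKM at 25 kPa. FBLN1 had a mean of 1.51 FPKM, and COL8A2, COL16A1, COL5A2, FBN1 and FBN2 had means of 0.520 FPKM or less. COL1A1, COL3A1, COL4A1 and COL4A2 were not analysed here. COL4A2-AS2 was at 1.02, 1.25 and 1.2 FPKM at 2 kPa and at 1.96, 2.48 and 2.96 FPKM at 25 kPa, with every stiff library above every soft one. Its log2 fold change was 0.68 (SE 0.21, limma adjusted p = 0.318), or 1.07 with a pseudocount of 0.01. Whether reads were counted by strand is not given in the sources used here, so reads of this RNA and of COL4A2 cannot be told apart. ITGB1BP1 and ITGB3BP had means of 2.32 and 0.118 FPKM, overlapping between groups.

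Among the cross-linking enzymes, LOXL2 was lower on the stiff gel while LOXL3 and LOXL4 were not. LOXL2 was at 12.3, 17.6 and 7.06 FPKM at 2 kPa and at 5.75, 4.35 and 5.85 FPKM at 25 kPa. The soft libraries were spread and all lay above the stiff ones, as with COL6A1. The means were 12.3 ± 5.27 and 5.32 ± 0.839 FPKM (SD, n = 3), 2.32-fold higher on the soft gel, with a log2 difference of −1.0 (SE 0.29, limma adjusted p = 0.262). Its unadjusted p stayed under 0.05 in 16 of 16 alternatives, with a log2 difference of −1.33 when 2 kPa replicate 3 was left out and of −0.72 when 2 kPa replicate 2 was. LOXL4 was at 5.18, 6.09 and 5.03 FPKM at 2 kPa and at 7.32, 7.46 and 6.57 FPKM at 25 kPa, higher in every stiff library, with a log2 fold change of 0.34 (SE 0.16). LOXL3 was at 4.16, 5.24 and 5.90 FPKM and at 5.85, 7.10 and 6.60 FPKM, overlapping by a small margin, with a log2 fold change of 0.31 (SE 0.18). The summed level of the 3 enzymes was 21.7, 28.9 and 18.0 FPKM at 2 kPa and 18.9, 18.9 and 19.0 FPKM at 25 kPa.

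**Figure D3:**
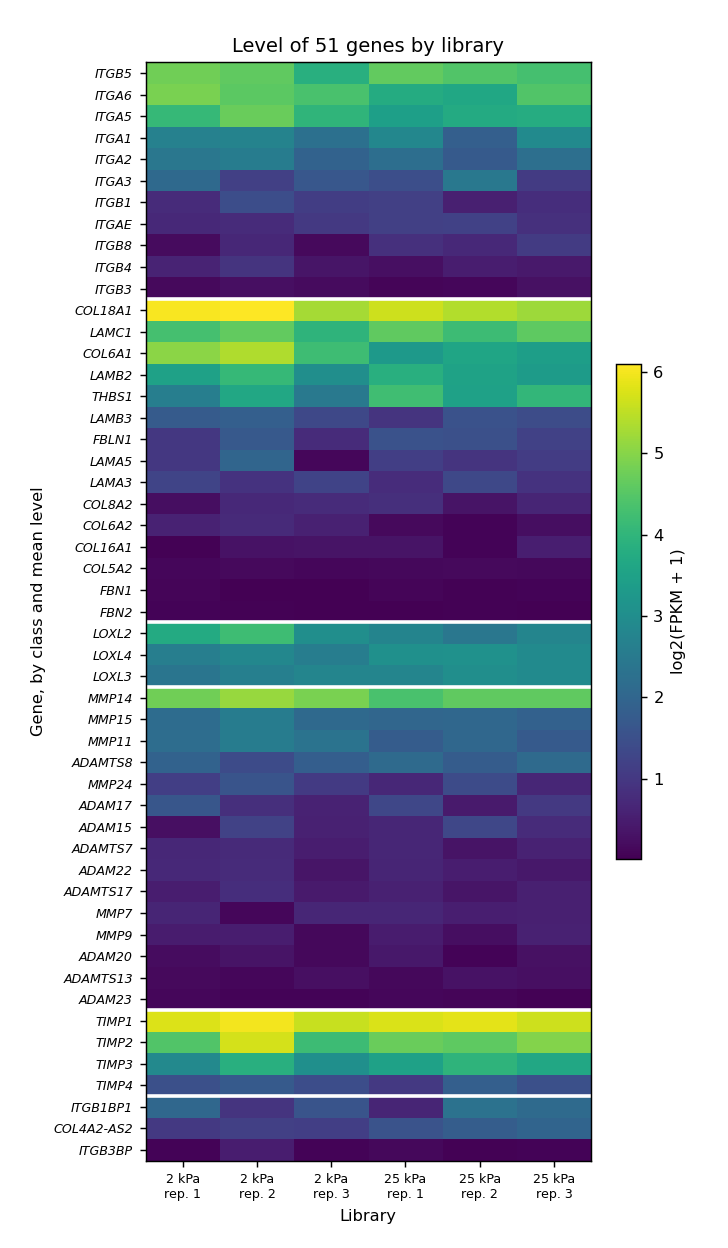
Level of 51 of the 52 genes in each library as log2(FPKM + 1), by colour, with genes grouped into integrin subunits, structural matrix, cross-linking enzymes, metalloproteases, inhibitors and genes sharing only the letters, each ordered by mean level, and white lines between groups. COL6A1 and LOXL2 are paler in the 3 columns at 2 kPa, and most ADAM and ADAMTS genes are dark in every column.

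Of the 15 metalloproteases, 6 had a log2 fold change above 0 and 9 below, with a median of −0.09 against 0.05 over all genes. Among the 6 with a mean of at least 1 FPKM, 5 lay below 0 and the median was −0.31, against 0.08 over the 5808 genes of that level. At an unadjusted p under 0.05, MMP14 and MMP11 were lower at 25 kPa and 0 were higher. The summed level of the 15 genes was 42.8, 53.4 and 42.3 FPKM at 2 kPa and 34.3, 37.5 and 37.0 FPKM at 25 kPa, apart between the groups, and MMP14 gave most of each sum.

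MMP14, the membrane-bound collagenase that also activates MMP2, was at 26.4, 34.7 and 28.2 FPKM at 2 kPa and at 19.5, 23.4 and 23.5 FPKM at 25 kPa. All soft libraries lay above all stiff ones. The means were 29.8 ± 4.35 and 22.1 ± 2.25 FPKM (SD, n = 3), which gave a log2 difference of −0.41 (SE 0.14, limma adjusted p = 0.356). It was −0.32 and −0.30 without 25 kPa replicate 1 and without 2 kPa replicate 2, in both cases with an unadjusted p no longer under 0.05.

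MMP11, stromelysin-3, which stromal cells of many carcinomas express, was at 3.58, 4.92 and 4.07 FPKM at 2 kPa and at 2.47, 3.12 and 2.36 FPKM at 25 kPa. The groups did not overlap, with a log2 fold change of −0.51 (SE 0.21, limma adjusted p = 0.466). Its unadjusted p stayed under 0.05 in 9 of 16 alternatives. It was lost after the GC correction, under the replicate block, without each of the 2 kPa libraries in turn and without 25 kPa replicates 1 and 3, where the log2 difference lay between −0.59 and −0.38. MMP15, another membrane-bound protease, was at 3.51, 4.93 and 3.24 FPKM at 2 kPa and at 3.09, 3.14 and 2.72 FPKM at 25 kPa. The groups were apart only narrowly, with a log2 fold change of −0.28 (SE 0.22). MMP24 had a log2 fold change of −0.34 (SE 0.26) and ADAMTS8 one of 0.28 (SE 0.24), both with overlap between groups. ADAM17, the sheddase of TNF and of EGF receptor ligands, ranged from 0.51 to 2.12 FPKM at 2 kPa and from 0.36 to 1.48 FPKM at 25 kPa. MMP7, a protease that tumours of intestinal epithelium often express, and MMP9, a gelatinase, had means of only 0.458 and 0.332 FPKM. The remaining ADAM and ADAMTS genes, ADAM15, ADAM20, ADAM22, ADAM23, ADAMTS7, ADAMTS13 and ADAMTS17, had means from 0.065 to 0.792 FPKM and overlapped between groups.

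The inhibitors were listed at a higher FPKM than most of the proteases, and none had an unadjusted p under 0.05 in the fit as reported (limma). TIMP1 was at 54.2, 63.0 and 46.7 FPKM at 2 kPa and at 53.0, 57.0 and 48.8 FPKM at 25 kPa, nearly the same range in both groups. Its log2 fold change was −0.04, with a 95% confidence interval of −0.34 to 0.27. TIMP2, which MMP14 needs to activate MMP2, was at 20.9, 51 and 17.2 FPKM at 2 kPa and at 25.3, 22.9 and 30.5 FPKM at 25 kPa. A single soft library, replicate 2, lay above all others and the remaining soft ones below, so that the log2 fold change of −0.02 (interval −0.80 to 0.76) became 0.44 without it. TIMP3, which binds to the matrix, was at 6.34, 13.4 and 7.2 FPKM at 2 kPa and at 10.3, 14.7 and 11.7 FPKM at 25 kPa, with overlap through the same library. Its log2 fold change was 0.46 (SE 0.26). With 1 library left out it ranged from 0.27 to 0.76, the latter without 2 kPa replicate 2. Without that library TIMP2 and TIMP3 both had an unadjusted p under 0.05 (limma). TIMP3 also had one under the replicate block. TIMP4 had a mean of 1.92 FPKM and a log2 fold change of −0.10 (SE 0.26). The ratio of TIMP2 to MMP14 within a library was 0.793, 1.47 and 0.609 at 2 kPa and 1.30, 0.980 and 1.30 at 25 kPa, with overlap.

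**Figure D4:**
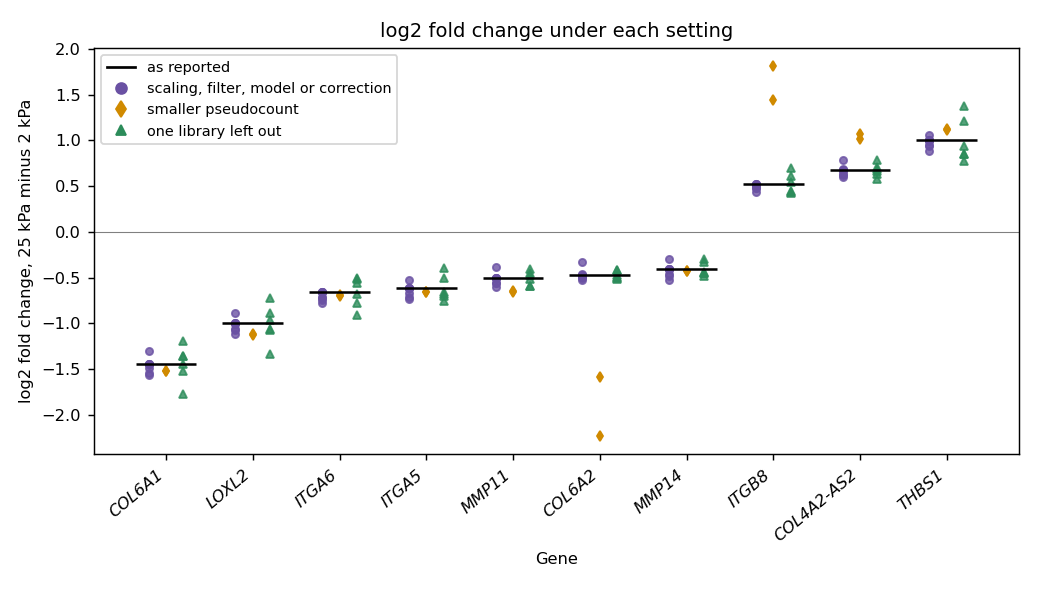
Log2 fold change (25 kPa minus 2 kPa) of 10 of the 11 genes with an unadjusted p under 0.05, as reported (bar) and under each alternative, with scaling, filter, model and correction settings, smaller pseudocounts and fits without 1 library shown apart. No point crosses 0, COL6A1 ranges from −1.77 to −1.19, and COL6A2 and ITGB8 move farthest with a smaller pseudocount, to −2.23 and 1.81.

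Genes that work with the 52 were counted in 5 lists, of which the table held 82 of 161 symbols. Some genes were listed under both an old and a new symbol, so these shares understate how many genes were found. In these lists 1 gene had an adjusted p under 0.05, and 7 were higher and 7 lower at an unadjusted p under 0.05 (8.54% each, against 6.96% and 3.19% of all genes, limma). In the adhesion machinery that links integrins to actin, 21 of 40 symbols were in the table. Their median log2 fold change was 0.01, and 1 gene had an unadjusted p under 0.05. That gene was VASP, an actin filament elongation factor, at 57.5, 50.9 and 46.7 FPKM at 2 kPa and 36.9, 42.5 and 34.7 FPKM at 25 kPa. VASP was lower in every stiff library, with a log2 fold change of −0.43 (SE 0.13, limma adjusted p = 0.275). VCL, vinculin, was alike in both groups at 24.9 ± 4.74 and 25.0 ± 3.46 FPKM (SD, n = 3), with a log2 fold change of 0.01 (interval −0.36 to 0.39) that turned in sign under each scaling between libraries. TES, a focal adhesion protein, and LIMS1, a partner of integrin-linked kinase, had log2 fold changes of −0.35 and 0.16.

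Among the other matrix proteins, 16 of 43 symbols were in the table. CTGF, CYR61 and NTN4 were higher and LTBP3 lower at an unadjusted p under 0.05. CTGF, a matricellular protein that binds integrins and a well-known target of the stiffness-responsive factors YAP and TAZ, was at 2.79, 5.73 and 1.81 FPKM at 2 kPa and at 15.7, 7.88 and 12 FPKM at 25 kPa. Every stiff library lay above every soft one, with a log2 fold change of 1.58 (SE 0.34, limma adjusted p = 0.165). CYR61, a related protein and also such a target, was at 7.77, 22.6 and 6.57 FPKM and at 37.6, 24.5 and 28.9 FPKM. Here too the groups were apart, but 2 kPa replicate 2 came close to the stiff libraries. For THBS1 the same soft library lay above 25 kPa replicate 2, so those groups overlapped. The log2 fold change of CYR61 was 1.41 (SE 0.38, limma adjusted p = 0.249), and 1.92 (limma adjusted p = 0.0116) without 2 kPa replicate 2. Without 2 kPa replicate 3 it was 1.10 (limma adjusted p = 0.416). NTN4, a netrin that binds laminin, had 0.420 ± 0.0721 and 0.880 ± 0.210 FPKM (SD, n = 3). LTBP3, a latent TGF-beta binding protein, had a log2 fold change of −0.97 with overlap between groups. TGFBI, the most abundant of the list, was alike at 42.7 ± 2.17 and 41.7 ± 2.26 FPKM (SD, n = 3).

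For collagen processing, 15 of 29 symbols were in the table, and 1 gene had an unadjusted p under 0.05. TGM2, the transglutaminase that cross-links matrix proteins, was at 1.04, 1.96 and 0.28 FPKM at 2 kPa and at 2.89, 2.49 and 3.50 FPKM at 25 kPa. It was higher in every stiff library, opposite to LOXL2, with a log2 fold change of 0.99 (SE 0.31, limma adjusted p = 0.325) that was 1.80 with a pseudocount of 0.01. SERPINH1, the collagen chaperone, was also higher in every stiff library, at 5.21 ± 0.701 and 7.02 ± 0.215 FPKM (SD, n = 3), with a log2 difference of 0.37 (SE 0.17). PPIB and P4HB, abundant enzymes of collagen folding in the endoplasmic reticulum, and COLGALT2 overlapped between groups, with log2 fold changes of 0.16, 0.02 and 0.38. That of PPIB turned in sign under quantile normalisation and that of P4HB under each scaling.

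Among the other matrix receptors, 9 of 18 genes were measured. DDR1, a collagen receptor with a tyrosine kinase, was at 17.4, 20.9 and 18.2 FPKM at 2 kPa and at 8.45, 11.9 and 8.71 FPKM at 25 kPa. The soft libraries lay clear of the stiff ones, 1.94-fold higher by the means, with a log2 fold change of −0.90 (SE 0.16, limma adjusted p = 0.0879) and an unadjusted p under 0.05 in 16 of 16 alternatives. HMMR, a hyaluronan receptor that is also a mitotic spindle protein, was at 5.50, 5.39 and 5.92 FPKM and at 13.7, 10.1 and 9.80 FPKM. It was higher in every stiff library, with a log2 fold change of 0.87 (SE 0.17, limma adjusted p = 0.118). SDC4, a syndecan of focal adhesions and the most abundant of the list, had a log2 fold change of −0.07 (interval −0.40 to 0.27), and CD47, a thrombospondin receptor, one of 0.22 (interval −0.20 to 0.63).

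Among the other proteases and inhibitors, 21 of 31 symbols were in the table, and 2 genes were higher and 4 lower at an unadjusted p under 0.05. CST1, a cystatin, and HPSE, heparanase, which cuts heparan sulfate, had log2 fold changes of 0.85 and 0.42, that of HPSE reaching 1.04 with a pseudocount of 0.01. CST1 was at 3.65, 5.22 and 5.44 FPKM at 2 kPa and at 15.55, 8.17 and 6.13 FPKM at 25 kPa. Without 25 kPa replicate 1 its log2 fold change was 0.50 and its unadjusted p was no longer under 0.05 (limma). HPSE was at a low level, 0.38 to 0.50 FPKM at 2 kPa and 0.68 to 1.14 FPKM at 25 kPa. CTSB, CTSD and ST14, a pair of lysosomal cathepsins and a membrane serine protease, had log2 fold changes of −0.42, −0.46 and −0.33. CST3 and SPINT2, the most abundant of the list, had log2 fold changes of −0.29 and −0.13.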

How the data were processed

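Per the labels, SW480 cells were cultured on a soft (2 kPa) or stiff (25 kPa) gel over 72 h. In all, 6 libraries were assigned to stiffness and replicate number from their titles. The authors deposited FPKM per gene symbol and library, with 2 decimals, for 8529 genes. Per the labels, reads were checked for quality first. The submitters' processing notes name HISAT, StringTie, Bowtie2, RSEM and the build hg18, with no version or role given. The lowest FPKM in the table was 0.01, with 0 values at 0. Low values showed no steps of whole reads, with at most 3.35% of low genes within 1% of a library pair's modal ratio. The number of reads behind a value is therefore unknown. The study's methods state a sequencing depth and a data volume, but no reads per gene.

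From the deposited FPKM, log2(FPKM + 1) was compared between groups by limma 3.58.1 in R 4.3.3 (lmFit, eBayes with a variance trend, two-sided), with Benjamini-Hochberg adjustment over all genes and a threshold of 0.05. DESeq2, named in the study's methods, needs counts and was not run. Tables and plots were made with Python 3.11.15, pandas 2.3.3, numpy 2.4.6 and matplotlib 3.10.9, and the fit was tested on simulated data. The 16 alternatives were a pseudocount of 0.1 or 0.01, a filter that kept genes with a mean of 1 FPKM or more, scaling by equal library sums, by quantiles or by medians, moderation with no variance trend, a replicate block, lowess corrections (span 0.3) for GC content and transcript length, and 6 fits that each left out 1 library. GC content and length came from GENCODE transcripts for 8202 of 8529 genes (96.2%). Same-numbered libraries deviated from their group means with correlations of 0.115, −0.267 and −0.125 across genes, so the numbers were not treated as pairs.

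The genes, classes and lists were chosen with earlier results of these data known. Genes named are those with an unadjusted p under 0.05, the 5 most abundant of each class, partner chains and, per list, the 3 with the smallest p and the 2 most abundant. LTBP3, CTSB, CTSD, ST14 and the low members were named after their values were seen. Protein sequences were not analysed here, and GRCh38 served only for promoters, GC content and length. Of the genes chosen by these rules, 1 of the 52 and 1 of a list are not reported here, though the counts include them.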

Additional observations from a re-analysis of the deposited data

How the results depend on the processing

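The direction of the 10 named genes with an unadjusted p under 0.05 held in each of the 16 alternatives that had a value for them. These genes were picked by their p in the same libraries, so a kept direction is no separate evidence. Over the 23 genes named of the 52, 345 of the alternative values kept direction and side of the adjusted threshold, 19 turned in sign and 2 passed the threshold, both for COL6A1. With each library left out in turn, 0 to 1 of the 52 genes had an adjusted p under 0.05, 7 to 13 an unadjusted one (3 to 8 higher and 3 to 8 lower at 25 kPa, against 7.29% to 11.7% of all genes in these fits), and 12 to 20 did not overlap (against 22.7% to 30.1%). Without 25 kPa replicate 1 the count was 7, and without 2 kPa replicate 2 the higher genes included TIMP2, TIMP3, FBLN1 and LOXL4. After median centring 1 gene, COL6A1, had an adjusted p under 0.05. The metalloprotease median was −0.309 with the filter at a mean of 1 FPKM, where fewer genes entered. That median reached 0.00434 without 2 kPa replicate 1, and the median of the 52 genes reached 0.0150 without 2 kPa replicate 2.

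Values near 0 turned in sign. With equal library sums, median centring and quantile normalisation in that order, the log2 fold change was −0.0722, −0.00451 and −0.0238 for ITGB5, −0.0786, −0.0146 and −0.0415 for LAMB2, −0.105, −0.0324 and −0.156 for P4HB and −0.106, −0.0382 and −0.0712 for VCL. It was −0.0272 for PPIB under quantile normalisation and 0.0595 for TIMP1 after the GC correction. With 1 library left out it ranged from −0.222 to 0.319 for ITGA1, −0.232 to 0.226 for ITGB5, −0.225 to 0.319 for LAMB2, −0.0176 to 0.321 for LAMC1, −0.143 to 0.0685 for TIMP1, −0.320 to 0.438 for TIMP2, −0.0575 to 0.161 for P4HB, −0.202 to 0.0628 for SDC4, −0.0718 to 0.0111 for TGFBI and −0.119 to 0.146 for VCL. The cause was not tested.

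The replicate number as a block left 0 of the 52 genes with an adjusted p under 0.05 and 12 with an unadjusted one (5 higher and 7 lower, against 5.58% and 2.78% of all genes), and over all genes 3 in place of 10 passed the adjusted threshold (limma). The libraries share only a number. The count of all genes past the adjusted threshold ranged from 3 to 17 over the alternatives. Without counts, no counting error can be given, and genes under 1 FPKM rest on the spread of 3 values near the lower end of the table.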
